A study of Mus musculus with 30 samples.

Results

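The Aurora kinases and the proteins that place and switch them on in mitosis were followed across 5 rescue clones of mouse embryonic stem cells (ESCs). The members were 7 genes named by symbol, the kinases Aurka, Aurkb and Aurkc with Incenp, Birc5, Cdca8 and Tpx2. Every probe whose symbol equalled a member was taken, and the brightest probe stood for a gene. This gave 8 probes of 6 genes, of 25697 probes and 18097 gene symbols on the array, with 1 probe each for Aurka, Aurkc, Incenp, Cdca8 and Tpx2 and 3 for Birc5. No row was labelled Aurkb, which was not analysed here. All 8 probes passed the detection filter (3 or more arrays with a detection p under 0.05), as did 15151 probes of 11177 genes in all.

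All clones derive from Ainv15, a mouse ESC line that expresses the reverse tetracycline transactivator. In Bub1b_R, Chek1_R, Ppm1g_R and Ppp2r1b_R, an shRNA depletes the endogenous mRNA that the clone is named for, and doxycycline (Dox, given at 1 μg/ml) induces a version of it that escapes the shRNA. Control_R is the control clone. Samples came from cells in Dox and from cells kept out of Dox for 5 days, on 3 arrays per condition and 30 in all. The study made several clones per gene, but the labels name a single clone for each gene, so a clone and the depletion cannot be told apart. The clones were kept on mouse embryonic fibroblasts and moved off them for the experiment. The labels do not say whether the 3 arrays of a condition came from separate cultures, so p-values measure the spread between these samples, which may be technical.

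Aurora kinases are serine/threonine kinases of cell division. Aurora A acts at centrosomes and spindle poles, where TPX2 binds and activates it. Aurora B is the kinase of the chromosomal passenger complex, in which INCENP is the scaffold that activates the kinase, and survivin (Birc5) and borealin (Cdca8) bring the complex to the inner centromere and later to the midzone. Aurora C is a close relative of Aurora B that can take its place in the complex, and is best known from meiotic germ cells and the early embryo.

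Aurkc was the member that stood apart. Its probe was lower without Dox than with Dox in each of the 4 depleted clones, by 0.76 to 1.60 on the log2 scale, while Aurka and the other 4 measured partners moved by 0.31 or less there. Aurkc was made a member because of that fall, so its values on the arrays of the 4 depleted clones are a description and carry no test. The other members were added for their function and were tested.

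Values below are normalized log2 signals, in which the arrays were brought to the same quantiles after background correction and 16 was added before the logarithm. A gene was called when the adjusted p (limma, Benjamini-Hochberg over the 15151 probes) was under 0.05 and the change at least 1.5-fold. Signal level split the arrays into 2 sets. For Bub1b_R and Control_R (12 arrays) the dimmest signal called detected lay at 12.9 to 20.9, and for the other 3 clones (18 arrays) at 27.8 to 58.1. Comparisons of Chek1_R, Ppm1g_R and Ppp2r1b_R with Control_R therefore cross the sets, and set and clone cannot be told apart there. The sample records of Control_R are also numbered in another block than those of all the depleted clones. In every comparison with Control_R, that of Bub1b_R included, block of records and clone cannot be told apart. Of the targeted mRNAs, only Ppm1g was called lower without Dox in its clone (−1.25, adjusted p 4.5e-09). Bub1b changed by −0.14 (adjusted p 0.217) and Ppp2r1b by 0.20 (adjusted p 0.365), and Chek1 went against its label with 0.71 (adjusted p 0.00115), so directions in that clone hold for the arrays labelled Chek1_R. The file does not place the probes, and signal from the endogenous mRNA and the added copy cannot be told apart.

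The promoter windows of Aurkc, Aurka and Cdca8 are shown because the genes differ in motifs that many mitotic promoters carry. RefSeq windows of 250 bases before to 50 bases after the start site (build GRCm38.p6) were at hand for 4 of the 7 members, Aurka, Aurkc, Birc5 and Cdca8. Both strands were searched for the cell cycle genes homology region (CHR, TTTGAA or TTCGAA) and the CCAAT box, and matches are in capitals, with ATTGG for a CCAAT box on the opposite strand. The windows lie at chr7:6995135-6995434 on the plus strand for Aurkc, chr2:172370521-172370820 on the minus strand for Aurka and chr4:124936868-124937167 on the minus strand for Cdca8.
Aurkc: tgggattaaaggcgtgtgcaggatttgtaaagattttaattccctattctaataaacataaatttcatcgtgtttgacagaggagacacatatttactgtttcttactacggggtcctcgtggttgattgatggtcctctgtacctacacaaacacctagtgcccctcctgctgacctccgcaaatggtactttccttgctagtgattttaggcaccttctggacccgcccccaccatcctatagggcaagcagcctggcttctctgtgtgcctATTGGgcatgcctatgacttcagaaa
Aurka: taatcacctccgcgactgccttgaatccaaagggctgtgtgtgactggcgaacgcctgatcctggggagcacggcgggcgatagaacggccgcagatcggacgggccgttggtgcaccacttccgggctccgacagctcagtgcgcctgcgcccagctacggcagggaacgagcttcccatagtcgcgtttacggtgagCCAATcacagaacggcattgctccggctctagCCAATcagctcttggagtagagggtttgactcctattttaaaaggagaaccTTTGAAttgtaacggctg
Cdca8: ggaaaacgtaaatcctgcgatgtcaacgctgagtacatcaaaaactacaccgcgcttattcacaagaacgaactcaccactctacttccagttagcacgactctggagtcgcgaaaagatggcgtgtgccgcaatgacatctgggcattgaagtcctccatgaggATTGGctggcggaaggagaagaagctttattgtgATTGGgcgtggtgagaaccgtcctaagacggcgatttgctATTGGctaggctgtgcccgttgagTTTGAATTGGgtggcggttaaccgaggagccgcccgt

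In Aurka, CCAAT boxes began at −51 and −19 from the start site and a TTTGAA at 33. The whole of this window, start site included, lies inside the Aurka gene, whose span ends at chr2:172370886. The bases at that end were not searched. In Cdca8, boxes on the opposite strand began at −85, −51, −11 and 19, and a TTTGAA at 14 shared 1 base with the last of them. The Aurkc window held a single opposite CCAAT box, at 25, and no CHR form. Its start site also lies inside the gene, whose span begins at chr7:6995347. The Birc5 window (chr11:117848987-117849286, plus strand) held none of these motifs. Among 32851 windows of this length, 37.4% held a CCAAT box, 17.9% a TTTGAA and 1.6% a TTCGAA. Matches to short motifs are common, and these are a description of the letters. By GC content the windows ranged from 46% in Aurkc to 68.7% in Birc5.

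**Figure D1:**
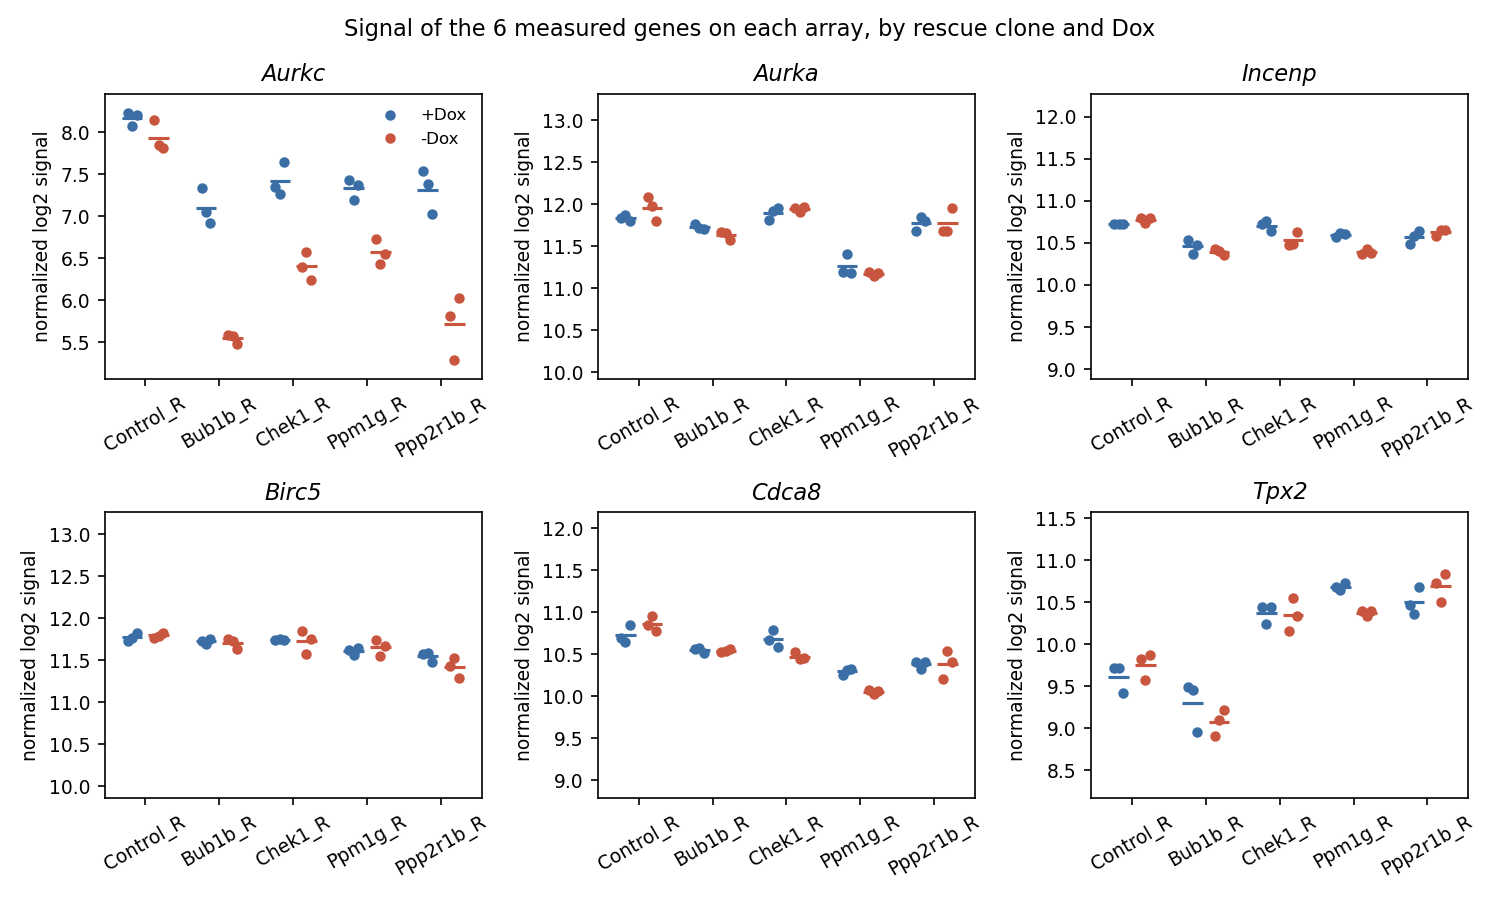
Normalized log2 signal of the 6 measured genes on each of 30 arrays (y axis, the same height in each panel) by rescue clone (x axis). Points are arrays, bars are means of 3 arrays, blue is with Dox and red without. Aurkc was highest in Control_R, lower in the 4 depleted clones with Dox and lowest in them without Dox, while among the others Tpx2 varied most between clones.

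With Dox, Aurkc measured 7.34, 7.05 and 6.91 in Bub1b_R, and without Dox 5.59, 5.58 and 5.48. In Ppp2r1b_R it measured 7.54, 7.38 and 7.02 with Dox and 5.82, 5.29 and 6.03 without. These were its steepest falls, of −1.55 (2.93-fold) and −1.60 (3.04-fold), and the arrays with and without Dox did not overlap in either clone.

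The arrays labelled Chek1_R gave Aurkc values of 7.35, 7.26 and 7.64 with Dox and 6.40, 6.57 and 6.24 without, a difference of −1.01. Ppm1g_R gave 7.42, 7.20 and 7.38 with Dox and 6.73, 6.43 and 6.55 without, a difference of −0.76. Here too every array without Dox lay under every array with Dox, so that 9 of 9 array pairs went the same way in each of the 4 clones.

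In Control_R, Aurkc measured 8.23, 8.07 and 8.20 with Dox and 8.14, 7.84 and 7.81 without. The change of −0.23 (SE 0.16, adjusted p 0.41 by limma, lower in 8 of 9 array pairs) did not pass the test, with a 95% interval of −0.56 to 0.09. Taking away the change in Control_R left −1.37 in Ppp2r1b_R, −1.32 in Bub1b_R, −0.53 in Ppm1g_R and −0.78 on the arrays labelled Chek1_R.

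In deposited intensity units, Aurkc came close to the background of the array only without Dox. It ranged from 71.8 to 123.9 with Dox in Bub1b_R and from 21.5 to 24.4 without, where it was still detected on 3 of 3 arrays. In Ppp2r1b_R it ranged from 137 to 152.4 with Dox and from 18.2 to 54.8 without, and was detected on 2 of 3 arrays without Dox. At these low signals the size of the fall depended on the offset and the background. With an offset of 50 the changes in Bub1b_R and Ppp2r1b_R were −1.09 and −1.16 for Aurkc, and with no background correction they were −2.05 and −2.08.

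The 10 conditions fell into 4 steps by their Aurkc mean. Control_R stood highest, at 8.17 ± 0.08 (SD, n = 3) with Dox and 7.93 ± 0.18 without. The 4 depleted clones with Dox followed between 7.42 ± 0.20 (the arrays labelled Chek1_R) and 7.10 ± 0.22 (Bub1b_R). Ppm1g_R (6.57 ± 0.15) and the arrays labelled Chek1_R (6.40 ± 0.17) without Dox came next, and Ppp2r1b_R (5.71 ± 0.38) and Bub1b_R (5.55 ± 0.06) without Dox were lowest. Within a step the arrays of neighbouring conditions overlapped, and between steps they did not. Aurkc was thus lower than in Control_R with Dox too, by 0.75 to 1.07 on the log2 scale in the 4 depleted clones (0.92 to 1.15 with arrays scaled to a common median). Without Dox the difference from Control_R was −2.38 in Bub1b_R, −2.22 in Ppp2r1b_R, −1.36 in Ppm1g_R and −1.53 on the arrays labelled Chek1_R. The arrays of Bub1b_R share the signal level of Control_R but not its block of sample records.

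Among the 3047 probes that were lower without Dox in all 4 depleted clones, Aurkc had rank 3 by its mean change of −1.23. Aurkc was chosen by this measure, so the rank is a description. The neighbours in that order were Cplx1 (−1.29) above it and Dmrtc2 (−1.22) below. Without the arrays labelled Chek1_R the mean of Aurkc was −1.31.

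**Figure D2:**
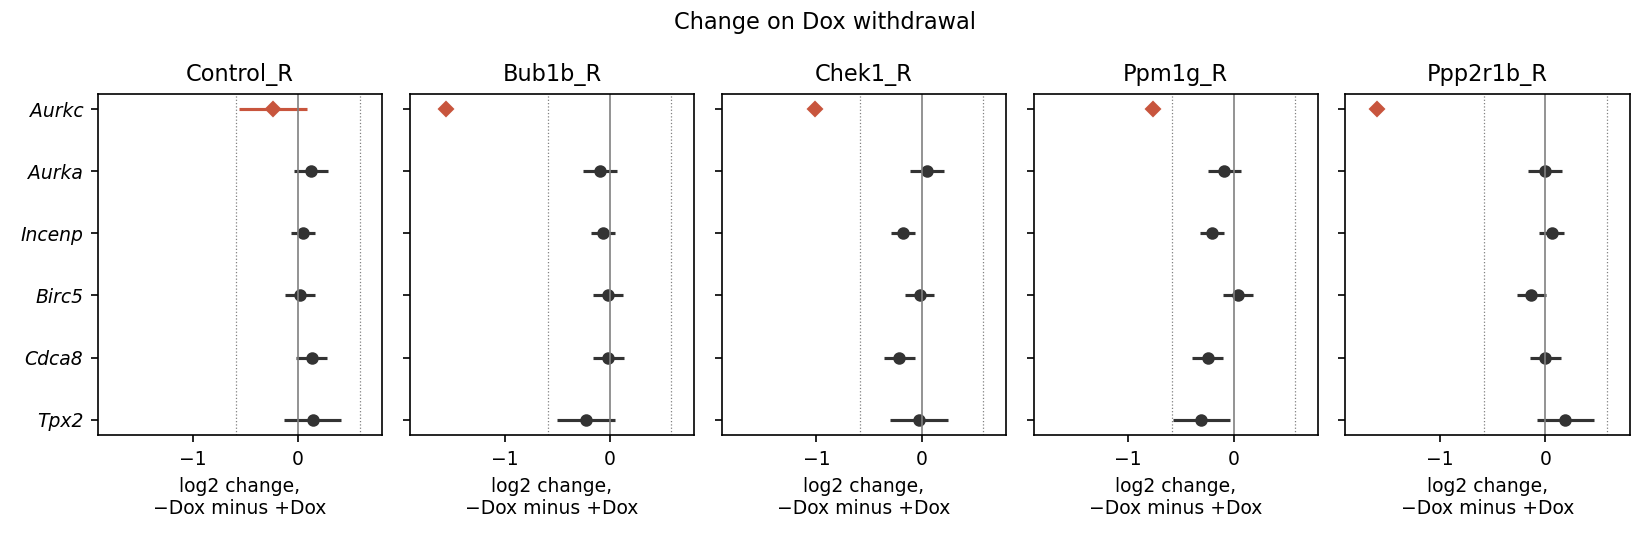
Log2 change on Dox withdrawal (x axis, without minus with Dox) of the 6 measured genes (y axis) in each rescue clone. Dots and diamonds are differences of means of 3 arrays, lines are 95% intervals of the limma fit (none for Aurkc in the depleted clones, where it was chosen by this change) and dotted lines mark 1.5-fold. Only Aurkc lay beyond a dotted line, in the 4 depleted clones.

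Aurka, the Aurora kinase of the spindle poles, held its level on Dox withdrawal within narrow limits. It measured 11.76, 11.72 and 11.70 with Dox and 11.67, 11.65 and 11.58 without in Bub1b_R, a difference of −0.10 (SE 0.08, adjusted p 0.421). In Ppp2r1b_R it measured 11.68, 11.85 and 11.80 with Dox and 11.68, 11.68 and 11.95 without, a difference of −0.01 with a 95% interval of −0.17 to 0.15. The differences in Control_R, in Ppm1g_R and on the arrays labelled Chek1_R were 0.12, −0.09 and 0.05, and none passed the test. Every one of these intervals lay inside the 1.5-fold limit. The change of Aurkc minus that of Aurka was −1.60 in Ppp2r1b_R, −1.46 in Bub1b_R, −0.68 in Ppm1g_R and −1.06 on the arrays labelled Chek1_R, against −0.36 in Control_R. The Aurka_R clone of the study was not analysed here.

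On Dox withdrawal, none of the 5 tested members (Aurka, Incenp, Birc5, Cdca8 and Tpx2) was called in any clone (0 of 5 in each). Over all probes tested, 9.27% were called on the arrays labelled Chek1_R, 5.6% in Bub1b_R, 4.82% in Ppp2r1b_R, 4.37% in Ppm1g_R and 1.1% in Control_R. At an unadjusted p under 0.05 (limma), 5 of 20 member values in the 4 depleted clones passed, and the methods' t-test called 0 after Benjamini-Hochberg adjustment. With so few members, a count of 0 lies near these shares. Minus the change in Control_R, again 0 of 5 members were called in each of the 4 clones, where 5.15% (Bub1b_R), 8.99% (the arrays labelled Chek1_R), 5.27% (Ppm1g_R) and 3.28% (Ppp2r1b_R) of all probes were called. At an unadjusted p under 0.05, 5 of these 20 values passed. The share of all probes at that unadjusted limit is not given here, so the unadjusted counts here and below are not read as an excess.

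Small falls of the scaffold and of borealin did pass the adjusted p, short of 1.5-fold. With no fold limit, 4689 of 15151 probes passed it on the arrays labelled Chek1_R and 3541 in Ppm1g_R, in either direction. Cdca8 measured 10.26, 10.31 and 10.33 with Dox in Ppm1g_R and 10.07, 10.03 and 10.07 without, a difference of −0.24 (SE 0.07, adjusted p 0.0146 by limma). On the arrays labelled Chek1_R it measured 10.67, 10.79 and 10.59 with Dox and 10.52, 10.44 and 10.45 without, a difference of −0.21 (SE 0.07, adjusted p 0.0258). In both clones the arrays with and without Dox did not overlap.

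Incenp measured 10.57, 10.62 and 10.61 with Dox in Ppm1g_R and 10.36, 10.43 and 10.38 without, a difference of −0.20 (SE 0.06, adjusted p 0.00861 by limma). On the arrays labelled Chek1_R it measured 10.72, 10.76 and 10.64 with Dox and 10.48, 10.48 and 10.63 without, a difference of −0.18 (SE 0.06, adjusted p 0.0175). In Bub1b_R and Ppp2r1b_R neither gene passed, with differences of −0.07 and 0.06 for Incenp and −0.01 and 0.00 for Cdca8. Minus Control_R, the values in Ppm1g_R were −0.37 for Cdca8 and −0.26 for Incenp.

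Tpx2 had the largest withdrawal change among the tested members, −0.31 in Ppm1g_R (SE 0.13, adjusted p 0.0973 by limma, lower in 9 of 9 array pairs), which did not pass. Its other changes were −0.22 in Bub1b_R, 0.19 in Ppp2r1b_R, 0.14 in Control_R and −0.03 on the arrays labelled Chek1_R. Birc5, by its brightest probe, changed by −0.13 in Ppp2r1b_R (adjusted p 0.166) and by no more than 0.04 in the other 4 clones. The 2 dimmer Birc5 probes gave changes of −0.09 to 0.22 in the depleted clones, the highest in Ppm1g_R (adjusted p 0.0499), where the brightest probe gave 0.04.

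The study compared rescue clones with and without Dox in part of its work. For its lists of changed transcripts it compared each clone without Dox with Control_R, taken here without Dox as well. Here Tpx2, the activator of Aurora A, differed in all 4 clones, and not in the same direction. In Control_R without Dox it measured 9.83, 9.57 and 9.87, and in Bub1b_R 8.91, 9.10 and 9.22, a difference of −0.68 (SE 0.13, adjusted p 0.000114 by limma, lower in 9 of 9 array pairs). In Ppp2r1b_R it measured 10.73, 10.50 and 10.84, a difference of 0.93 (SE 0.13, adjusted p 1.31e-06). The arrays labelled Chek1_R (0.59) and Ppm1g_R (0.62) also lay above Control_R in 9 of 9 array pairs each.

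Tpx2 stood above Control_R with Dox as well, by 1.07 in Ppm1g_R, 0.89 in Ppp2r1b_R and 0.76 on the arrays labelled Chek1_R, while the difference in Bub1b_R was −0.31 (adjusted p 0.0605), short of the test. These 3 clones are the ones on the other set of arrays. When the arrays were scaled to a common median in place of quantiles, the median of all probes moved by −0.23 to −0.39 in these comparisons and none of the higher Tpx2 values was still called. This scaling multiplies the log2 values of an array by a common factor, so brighter probes move further than dim ones. Without Dox, Tpx2 then differed by 0.34 in Ppp2r1b_R, 0.03 in Ppm1g_R and 0.21 on the arrays labelled Chek1_R, and with Dox by 0.18, 0.55 and 0.35. In Bub1b_R, which shares the signal level of Control_R but not its block of sample records, Tpx2 without Dox differed by −0.66 under the same scaling.

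**Figure D3:**
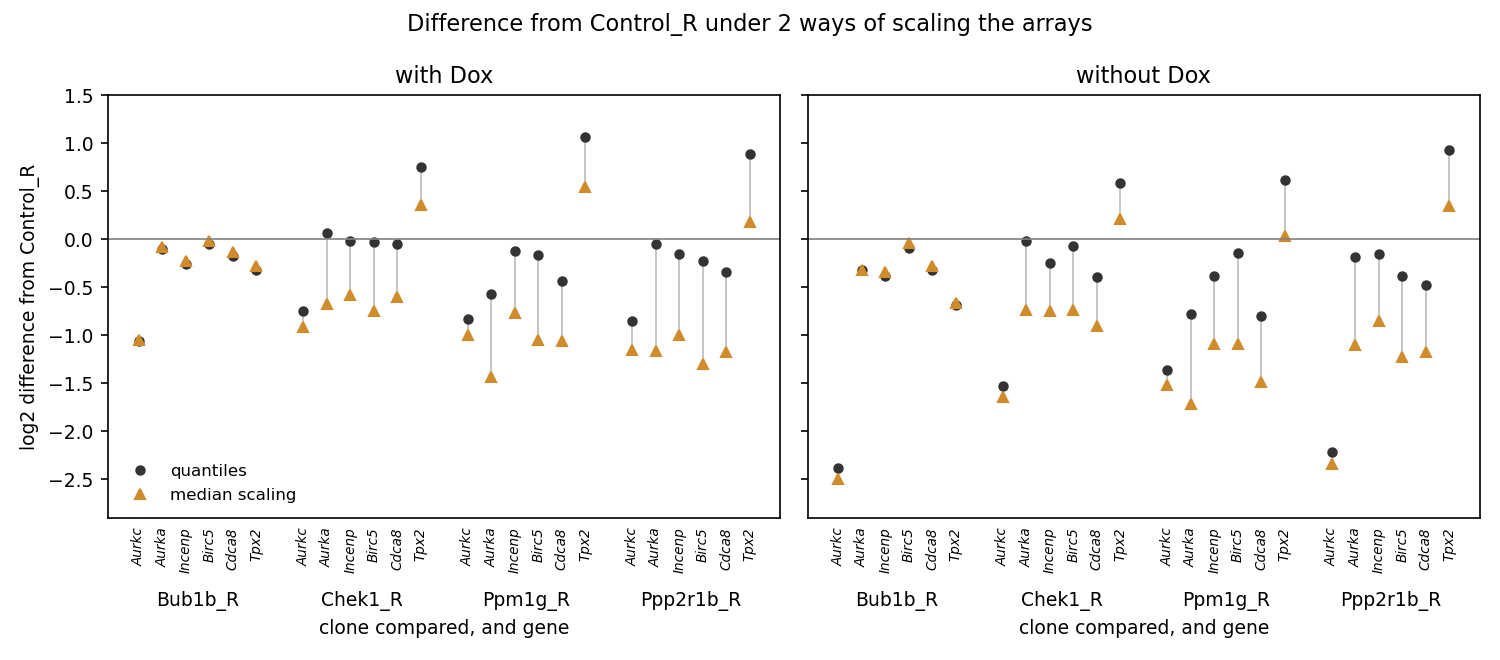
Log2 difference from Control_R (y axis) of the 6 measured genes in each clone (x axis), with Dox (left) and without (right). Dark dots are the values by quantiles and triangles those with arrays scaled to a common median, and grey lines join the pair. The pairs nearly coincide in Bub1b_R, while for the other 3 clones the triangles lie lower, by less for Aurkc than for the other genes. Median scaling moves bright probes further, and Aurkc is the dimmest of the 6.

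Without Dox, Aurka and Cdca8 were lower in Ppm1g_R than in Control_R. Aurka measured 11.20, 11.15 and 11.18 there and 12.08, 11.98 and 11.80 in Control_R, a difference of −0.78 (SE 0.08, adjusted p 5.18e-09 by limma). Cdca8 measured 10.07, 10.03 and 10.07 against 10.84, 10.96 and 10.78, a difference of −0.80 (SE 0.07, adjusted p 7.99e-10). The groups did not overlap for either gene, and median scaling made both differences larger, −1.72 for Aurka and −1.49 for Cdca8. Both have bright probes, which that scaling moves further. With Dox both genes were also lower in Ppm1g_R, in 9 of 9 array pairs each, with differences of −0.57 (SE 0.08, adjusted p 9.19e-07 by limma) for Aurka and −0.43 (SE 0.07, adjusted p 1.45e-05) for Cdca8, short of 1.5-fold. By median scaling these were −1.43 and −1.06.

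Counted over the 5 tested members, 1 of 5 was called without Dox in Bub1b_R (22.6% of all probes), 1 of 5 on the arrays labelled Chek1_R (28.8%), 3 of 5 in Ppm1g_R (33.5%) and 1 of 5 in Ppp2r1b_R (33.7%). With Dox, 0 of 5 were called in Bub1b_R (12.7% of all probes, and 3 of 5 members at an unadjusted p under 0.05 by limma) and 1 of 5, Tpx2, in each of the arrays labelled Chek1_R (17.6%), Ppm1g_R (29.1%) and Ppp2r1b_R (28.3%). With 5 genes these shares are too coarse to set the members apart from all probes. Under median scaling the calls without Dox rose from 6 to 13 and those with Dox from 3 to 11, all of them lower than Control_R. The whole array moved the same way there. In the 3 clones of the other array set, 39.1% to 48.6% of all probes were called without Dox under that scaling and 31.8% to 49.3% with Dox, and 73.3% to 83.9% of these calls were lower, against 44.5% to 50.9% by quantiles. Aurka on the arrays labelled Chek1_R with Dox went from 0.06 to −0.68 under that scaling.

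Survivin probes did not give the same call everywhere. In Ppp2r1b_R without Dox the Birc5 probe ILMN_2681241 differed from Control_R by −0.71 (adjusted p 5.34e-08 by limma) and was called, while the brightest, ILMN_2632712, differed by −0.38 (adjusted p 3.45e-05) and ILMN_2603699 by −0.36 (adjusted p 0.000412), both short of 1.5-fold. In Bub1b_R without Dox no Birc5 probe passed, with differences of −0.14 to −0.06. Aurka, Cdca8 and Incenp in Bub1b_R without Dox passed the adjusted p but not 1.5-fold, at −0.32, −0.32 and −0.38.

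Across the 30 arrays, the level of Aurkc followed that of its relatives only loosely. Pearson's r was 0.21 with Aurka, 0.60 with Incenp, 0.43 with Cdca8, 0.41 with Birc5 and 0.00 with Tpx2. The pair of members most alike was Aurka and Cdca8 (r 0.74), and the least alike Birc5 and Tpx2 (r −0.59). These correlations over arrays mix clones, Dox and the 2 array sets and are descriptive. The genes most like Aurkc among 11176 others were Aes (r 0.96), Ttf2 (0.93), Hdac6 (0.92), Rnf181 (0.91) and Rab3a (0.91), all over 30 arrays, and those most like Aurka were Slc25a1 (0.91), 2610020O08Rik (0.90) and Ncapd2 (0.89).

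The wider pathway was read from lists of Aurora A partners, of factors that recruit the passenger complex, of substrates and effectors, and of opposing phosphatases and degradation factors. Of 50 genes listed, 42 had a probe and 39 were tested. On Dox withdrawal, 1 of 39 was called higher on the arrays labelled Chek1_R, 1 of 39 lower in Ppp2r1b_R, and 0 of 39 in Bub1b_R, Ppm1g_R and Control_R, where 13, 12 and 10 had an unadjusted p under 0.05 by limma. Over all probes, 4.49% were called higher on the arrays labelled Chek1_R and 2.05% lower in Ppp2r1b_R, and in either direction 5.6% in Bub1b_R, 4.37% in Ppm1g_R and 1.1% in Control_R. With no fold limit, 3701, 3541 and 1144 of 15151 probes passed the adjusted p in Bub1b_R, Ppm1g_R and Control_R. That limit is stricter than the unadjusted p, so these are not the background of the unadjusted counts. The median change of the 39 lay between −0.06 and 0.01, beside medians of all probes between −0.02 and 0.00. No pathway gene was called the same way in at least 2 clones on Dox withdrawal. Minus the change in Control_R, 1 of 39 was called lower in Bub1b_R, 1 higher on the arrays labelled Chek1_R, 1 higher in Ppp2r1b_R and 0 in Ppm1g_R. In either direction, 5.15%, 8.99%, 3.28% and 5.27% of all probes were called there.

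The 3 pathway genes with the largest mean change were Ppp2r5c, Nedd9 and Rcc2. Ppp2r5c, a regulatory subunit of protein phosphatase 2A, had a mean change of −0.41 and lay between −0.53 and −0.34 in the 4 depleted clones, and at −0.27 in Control_R. Nedd9, a scaffold protein that binds and activates Aurora A, was the gene called on the arrays labelled Chek1_R (0.74, SE 0.12, adjusted p 2.95e-05 by limma), and gave 0.41 in Bub1b_R, 0.42 in Ppp2r1b_R and 0.05 in Ppm1g_R. Rcc2, which helps place the passenger complex at centromeres, was the gene called in Ppp2r1b_R (−0.81, SE 0.11, adjusted p 1.19e-05), and gave −0.56 in Ppm1g_R and −0.02 in Bub1b_R. Its value on the arrays labelled Chek1_R lay between −0.81 and −0.02. Minus the change in Control_R, 0 of the 8 tested recruitment factors, Rcc2 among them, were called in Ppp2r1b_R. Mean changes of the 39 genes ran from −0.41 to 0.41, and 22 of them were under 0.1 in size. No mean of a pathway gene reached that of Aurkc, −1.23. Aurkc was chosen for the size of this fall, so the order is a description and not a test.

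**Figure D4:**
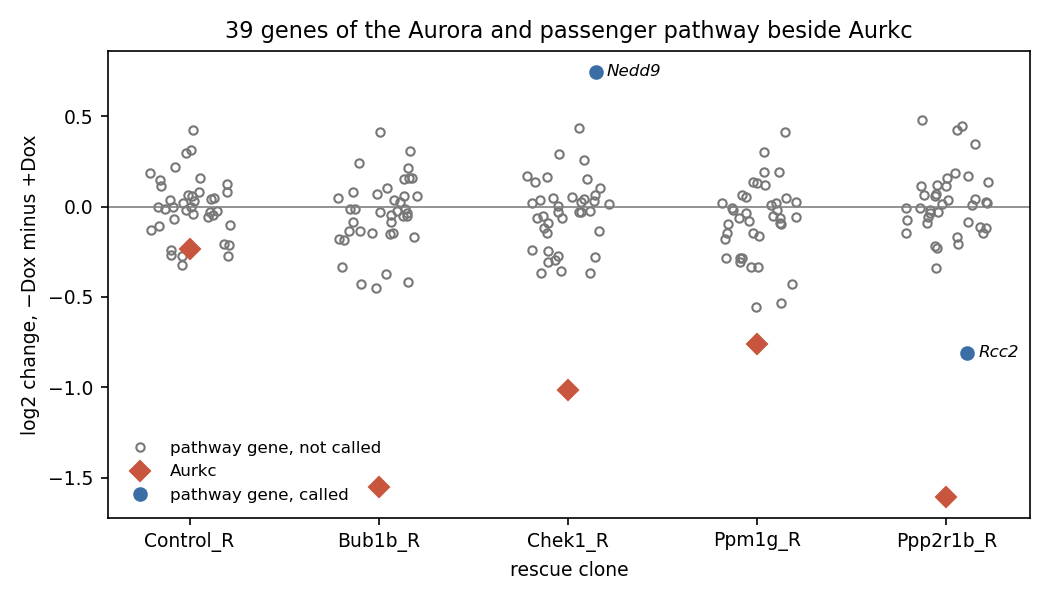
Log2 change on Dox withdrawal (y axis) of the 39 tested pathway genes (circles) and of Aurkc (diamonds) in each rescue clone (x axis). Filled circles are genes called at an adjusted p under 0.05 and 1.5-fold, Nedd9 and Rcc2. Aurkc, which was chosen for its fall in the 4 depleted clones, lay below every pathway gene there and among them in Control_R.

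Markers of cell type and of division moved as follows beside the fall of Aurkc. Of all probes, 2.94% were called higher without Dox in Bub1b_R, 2.77% in Ppp2r1b_R, 2.3% in Ppm1g_R, 0.706% in Control_R and 4.49% on the arrays labelled Chek1_R, and 2.05% to 4.77% were called lower in the depleted clones and 0.396% in Control_R. Of 10 tested genes of cycling cells, 0 were called on Dox withdrawal in any clone (0 to 4 per clone at an unadjusted p under 0.05 by limma), with medians of −0.06 to 0.06. Of 8 primitive streak and epiblast markers, 8 rose both in Bub1b_R and on the arrays labelled Chek1_R, 6 in Ppm1g_R, 5 in Ppp2r1b_R and 2 in Control_R, and their summed intensity went from 1710.5 to 2084.1 with Dox to 7903.2 to 9282 without in Bub1b_R. In Control_R with Dox that sum was 101.5 to 129.1. Already with Dox, 7 of 8 were called above Control_R in Bub1b_R, 7 in Ppm1g_R, 5 in Ppp2r1b_R and 3 on the arrays labelled Chek1_R. Of all probes, 12.7%, 29.1%, 28.3% and 17.6% were called there in either direction. Of 7 ESC markers, 3 fell in Ppp2r1b_R, 1 in Bub1b_R and 1 on the arrays labelled Chek1_R, with 0 in Ppm1g_R and Control_R (4 and 3 at an unadjusted p under 0.05). All 7 ESC markers with a probe were detected in every condition.

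Germ line markers were read because Aurora C is best known from meiosis. Of 14 listed, 8 were tested, and 2, 2, 1 and 2 were lower without Dox in Bub1b_R, Chek1_R (as labelled), Ppm1g_R and Ppp2r1b_R, with 0 in Control_R. Counts of 1 or 2 among 8 genes are coarse beside the 2.67%, 4.77%, 2.07% and 2.05% of all probes called lower in these clones. Smc1b, a meiotic cohesin subunit, was called in all 4 depleted clones, by −0.92, −1.69, −0.75 and −0.66. Of 10 fibroblast markers, 5 passed the filter, and 1, 2, 3 and 2 of them were higher without Dox in the same 4 clones, with 1 lower on the arrays labelled Chek1_R and 1 in Ppm1g_R. In bulk samples, fewer cells of a type and less RNA per cell cannot be told apart. The part of these markers in the Aurkc result was not tested.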

How the data were processed

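RNA of the 30 samples was hybridized to Illumina Mouse WG8-V2 arrays. The authors deposited a signal intensity for each of 25697 probes per array, each with a detection p-value and before any scaling between arrays. The submitters' processing notes name lumi. How they normalized and which threshold they used are not given in the sources used here. Some detection p cells held dates (46 on 1 Ppm1g_R array, 14 on 1 Bub1b_R array, all without Dox). Of these, 28 and 6 were converted back, and 18 and 8 took the value of the nearest signal on that array.

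In R 4.3.3 with limma 3.58.1, intensities were normalized with neqc (offset 16, quantiles, log2). The filter asked for 3 or more arrays with a detection p under 0.05, which left 15151 probes, and 1 limma fit took the means of 10 conditions, with 20 residual and 3.38 prior degrees of freedom. Several kinds of contrast were made: withdrawal within a clone, the same minus Control_R, and each clone against Control_R without or with Dox. Benjamini-Hochberg adjustment ran over all tested probes of a contrast. The fit was tested on simulated data. With 3 arrays a side, a comparison has 9 array pairs. The number of arrays, 3 per condition, limits the precision. Replicate arrays correlated with r between 0.990 and 0.997.

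The brightest probe stood for a gene. Named were the members, the targeted genes, pathway genes called the same way in at least 2 depleted clones or otherwise the 3 with the largest mean change, and the 5 genes most like Aurkc and 3 most like Aurka by r. Cplx1, Dmrtc2 and Smc1b fall outside the rule and were chosen once their values were known. Members and lists were chosen with earlier results of these data known. Alternatives were no background correction, median scaling, no detection filter, a stricter filter (12372 probes with 3 of 3 arrays of a condition under a detection p of 0.01), an offset of 50, a replicate block, only the arrays compared, no fold limit, a limit of 2-fold, the methods' t-test, all probes of a member, and leaving out each array. Same-numbered arrays did not deviate together (pair correlations from −0.212 to 0.131 in 13 comparisons, 0 of them with all 3 pairs over 0.1), so the numbers were not taken as pairs.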

Additional observations from a re-analysis of the deposited data

Results flagged for a closer look

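Less the change in Control_R, the change without Dox passed the adjusted p (limma) for 2 members in 2 clones, each short of 1.5-fold. For Cdca8 (borealin) it was −0.343 on the arrays labelled Chek1_R (SE 0.101, adjusted p 0.0185) and −0.375 in Ppm1g_R (SE 0.101, adjusted p 0.015). For Incenp (the scaffold of the passenger complex) it was −0.227 on the arrays labelled Chek1_R (SE 0.079, adjusted p 0.0468) and −0.256 in Ppm1g_R (SE 0.079, adjusted p 0.033). All 4 differences share the Control_R arrays, where Cdca8 changed by 0.13 and Incenp by 0.05 in the other direction. Over all probes, 2766 of 15151 passed this adjusted p on the arrays labelled Chek1_R and 1821 in Ppm1g_R. Beside these, 2 of 5 tested members in a clone are too coarse a count to set the members apart.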

How the results depend on the processing

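Aurkc was lower without Dox in the 4 depleted clones under every alternative run. It was chosen for that fall on these same arrays, so this is a description and no independent support. Member calls on Dox withdrawal, and minus Control_R, stayed at 0 under the alternatives except with no fold limit, where there were 4 in each (Cdca8 and Incenp in Ppm1g_R and on the arrays labelled Chek1_R). Against Control_R without Dox the 6 calls became 13 by median scaling, 0 at 2-fold and 16 with no fold limit, and ranged from 4 to 6 without single arrays. With Dox the 3 calls became 11, 1 and 10, and ranged from 3 to 4. The 4 calls without single arrays rest on Control_R without Dox replicate 2, without which Tpx2 was 0.497 on the arrays labelled Chek1_R and 0.525 in Ppm1g_R. Chek1_R without Dox replicate 2 likewise moved Tpx2 to 0.491, and an offset of 50 moved it to 0.572. The methods' t-test with Benjamini-Hochberg adjustment gave 0, 6 and 3 calls for withdrawal, without Dox and with Dox. Over all 15151 probes, dropping the fold limit gave 3541 to 4689 calls on withdrawal in the depleted clones and 1254 to 2766 minus Control_R. Against Control_R it gave 8013 to 9910 without Dox and 6052 to 9346 with Dox. The member calls with no fold limit are therefore not read as a result about the members.

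With the replicate block the calls were 0 on withdrawal, 0 minus Control_R, 6 without Dox and 3 with Dox, as without it, and no member's call changed. Over all probes it moved the counts of calls by less than 1.5 times, for instance from 1362 to 1341 for the arrays labelled Chek1_R minus Control_R.

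Median scaling turned the sign of small values, of which Aurka against Control_R with Dox on the arrays labelled Chek1_R was the single one past the threshold. Tpx2 took 0.022 on withdrawal on the arrays labelled Chek1_R. Cdca8 took 0.008 on withdrawal in Bub1b_R, 0.153 on withdrawal in Ppp2r1b_R and 0.000 on withdrawal minus Control_R in Ppp2r1b_R. Birc5 probe ILMN_2632712 took 0.013 on withdrawal on the arrays labelled Chek1_R, −0.041 on withdrawal in Ppm1g_R, 0.081 on withdrawal in Ppp2r1b_R, 0.012 on withdrawal minus Control_R on the arrays labelled Chek1_R, −0.043 on withdrawal minus Control_R in Ppm1g_R and 0.079 on withdrawal minus Control_R in Ppp2r1b_R. Birc5 probe ILMN_2681241 took 0.005 on withdrawal on the arrays labelled Chek1_R, −0.058 on withdrawal in Ppm1g_R, 0.073 on withdrawal in Ppp2r1b_R, 0.011 on withdrawal minus Control_R in Ppp2r1b_R and 0.036 against Control_R with Dox in Bub1b_R. Birc5 probe ILMN_2603699 took 0.156 on withdrawal in Ppp2r1b_R, 0.015 on withdrawal minus Control_R on the arrays labelled Chek1_R, 0.097 on withdrawal minus Control_R in Ppp2r1b_R and 0.017 against Control_R without Dox in Bub1b_R. Aurka took 0.194 on withdrawal in Ppp2r1b_R, 0.065 on withdrawal minus Control_R in Ppp2r1b_R and −0.679 against Control_R with Dox on the arrays labelled Chek1_R. Leaving out single arrays turned only values that had not passed. Aurka ranged over −0.090 to 0.051 against Control_R without Dox on the arrays labelled Chek1_R and −0.099 to 0.041 on withdrawal in Ppp2r1b_R. Birc5 probe ILMN_2603699 ranged over −0.004 to 0.102 against Control_R with Dox in Bub1b_R, −0.063 to 0.008 on withdrawal in Bub1b_R, −0.060 to 0.046 against Control_R with Dox on the arrays labelled Chek1_R, −0.018 to 0.037 on withdrawal on the arrays labelled Chek1_R and −0.112 to 0.031 on withdrawal in Ppp2r1b_R. Birc5 probe ILMN_2632712 ranged over −0.041 to 0.019 on withdrawal in Bub1b_R, −0.129 to 0.006 against Control_R without Dox on the arrays labelled Chek1_R, −0.080 to 0.055 on withdrawal on the arrays labelled Chek1_R, −0.100 to 0.035 on withdrawal minus Control_R on the arrays labelled Chek1_R, −0.002 to 0.097 on withdrawal in Ppm1g_R and −0.022 to 0.077 on withdrawal minus Control_R in Ppm1g_R. Birc5 probe ILMN_2681241 ranged over −0.071 to 0.015 against Control_R with Dox in Bub1b_R, −0.084 to 0.014 on withdrawal on the arrays labelled Chek1_R and −0.068 to 0.052 on withdrawal in Ppm1g_R. Cdca8 ranged over −0.100 to 0.013 against Control_R with Dox on the arrays labelled Chek1_R and −0.079 to 0.087 on withdrawal in Ppp2r1b_R. Incenp ranged over −0.044 to 0.015 against Control_R with Dox on the arrays labelled Chek1_R and −0.034 to 0.039 on withdrawal minus Control_R in Ppp2r1b_R. Tpx2 ranged over −0.125 to 0.069 on withdrawal on the arrays labelled Chek1_R and −0.047 to 0.146 on withdrawal minus Control_R in Ppp2r1b_R. The cause was not tested. Dim signals limit the Aurkc values without Dox, and 3 arrays per condition limit all others.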
